A study of Mus musculus with 8 samples.

Results

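The 7 genes described here serve antigen presentation by MHC class II molecules: *H2-Aa*, *H2-Ab1*, *H2-Eb1*, *Cd74*, *Ciita*, *H2-DMa* and *H2-DMb1*. They were chosen by name, as core genes of the pathway, with earlier results of these data known. They were read from the table of raw counts by their mouse gene symbols. They are 7 of the 31053 genes in the table, and all 7 were among the 11080 genes that passed the filter on low counts and were tested for genotype.

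Bulk RNA-seq was done on visceral white adipose tissue (vWAT), which the sample titles call epididymal, from 4 KIKO and 4 WT mice, with 1 library per mouse. KIKO mice, a model of Friedreich's ataxia, carry a knock-in allele opposite a knock-out allele of the targeted gene, so that every cell of the animal holds both alleles. WT mice were their C57BL/6 littermates, the labels give C57BL/6 as the strain of both groups, and all mice were males aged 8 months for which the labels name no treatment. The comparison asks how class II gene expression in vWAT differs between the genotypes, and p values measure the spread between mice within these groups.

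MHC class II molecules are pairs of an alpha and a beta chain that carry peptides from endocytosed proteins to the cell surface, where CD4+ T cells read them. In the endoplasmic reticulum they bind the invariant chain, the product of *Cd74*, whose last fragment is later exchanged for peptide with the help of H2-DM, and the genes for all of these parts need the coactivator CIITA. In adipose tissue macrophages, dendritic cells and B cells are the main carriers, and adipocytes have been described to express class II too. Each of these levels is a bulk level, in which a change in the number of cells that carry class II and a change in RNA per cell cannot be told apart.

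The total per library was 2602189 to 3478539 counts in KIKO and 2936515 to 3119146 counts in WT mice. On the first principal component, which held 32.3% of the variance of the tested genes, WT mouse 3 scored 12.6, within the 4.04 to 24.0 of KIKO mice. WT mice 1, 2 and 4 scored -38.6, -18.4 and -8.43, so that WT mouse 1 stood at the other end of its group. Mitochondrial genes held 6.91% of the counts in WT mouse 1, against 9.15% to 10.7% in the other WT mice. Results are also given without WT mouse 3, beside runs that leave out each other mouse. Within each library, how far genes lay from their average over the 8 mice varied with transcript length, with a Spearman's rho of -0.214 to -0.0843 in KIKO mice and -0.110 to 0.262 in WT mice, WT mouse 3 having the lowest rho of its group (a description, since genes are not independent replicates).

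Promoters of class II genes are known for an X box and, downstream of it, a Y box, which together seat the RFX, CREB and NF-Y proteins that CIITA binds to. The windows of 3 members are shown because these genes hold both boxes and had the smallest adjusted p values of the 7 members. Each run covers 250 bases before to 50 bases from the annotated start, 5′ to 3′ on the strand of the gene, and comes from RefSeq on build GRCm38.p6. Capitals mark GNAAC, the left part of an X box, and GATTGG, the core of a Y box, where GNAAC begins 25 to 40 bases upstream of GATTGG on the same strand.
*H2-DMb1*, chr17:34152941-34153240, plus strand: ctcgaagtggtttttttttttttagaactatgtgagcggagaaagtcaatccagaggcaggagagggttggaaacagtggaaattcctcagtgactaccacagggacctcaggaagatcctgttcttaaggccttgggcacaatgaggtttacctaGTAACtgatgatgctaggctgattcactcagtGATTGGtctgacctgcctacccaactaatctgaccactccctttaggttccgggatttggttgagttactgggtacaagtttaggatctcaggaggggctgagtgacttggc
*H2-Eb1*, chr17:34305617-34305916, plus strand: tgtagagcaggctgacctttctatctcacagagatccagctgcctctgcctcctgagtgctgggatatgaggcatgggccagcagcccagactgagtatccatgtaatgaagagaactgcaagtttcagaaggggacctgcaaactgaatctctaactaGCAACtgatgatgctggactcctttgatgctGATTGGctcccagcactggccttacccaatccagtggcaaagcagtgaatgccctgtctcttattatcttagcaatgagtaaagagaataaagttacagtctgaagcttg
*H2-Aa*, chr17:34287774-34288073, minus strand: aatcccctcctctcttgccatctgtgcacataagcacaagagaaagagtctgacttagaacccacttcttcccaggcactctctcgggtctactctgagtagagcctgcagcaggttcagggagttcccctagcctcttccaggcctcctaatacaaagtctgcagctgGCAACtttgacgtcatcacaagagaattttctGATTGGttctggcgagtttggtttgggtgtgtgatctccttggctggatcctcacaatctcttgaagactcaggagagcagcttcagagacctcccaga

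The marked GNAAC begins 94 bases before the RefSeq start in *H2-DMb1*, 91 bases in *H2-Eb1* and 81 bases in *H2-Aa*, and GATTGG follows 32, 31 and 32 bases further on. The GENCODE annotation begins *H2-DMb1* at 34153072, upstream of the RefSeq start, so that both marked stretches lie inside the gene there. For *H2-Eb1* and *H2-Aa* the 2 sources give the same start. Searched on both strands, GATTGG was in 16.1% and GNAAC in 84.8% of 32851 promoter windows of the same length, and the pair in that order and spacing was in 0.922% of them. The letters and the spacing were set with these promoters in view, and a match is a description of the sequence, not a bound site. Of the 7 members, 4 had a window, and neither window of *H2-DMa* held the pair. Among the other class II genes with a window, *H2-Eb2*, *H2-Oa* and *H2-Ob* held the pair and *H2-DMb2* did not, and the 3 that held it were under the filter on low counts in vWAT.

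Of the 7 members, *H2-DMb1* alone passed the test in edgeR (quasi-likelihood test with Benjamini-Hochberg adjustment over the 11080 genes, adjusted p under 0.05), and it was higher in KIKO mice. Over all tested genes, 31 genes (0.280%) passed as higher and 44 (0.397%) as lower (18 and 49 where libraries were scaled by their totals). The fitted log2 fold changes of all 7 members lay above 0, with a median of 0.55, against a median of -0.01 over all tested genes, of which 49.0% lay above 0. At an unadjusted p under 0.05, 5 of 7 members were higher, against 7.13% of all tested genes. Every KIKO mouse lay above every WT mouse for 4 of 7 members, against 3.89% of all tested genes. Members share regulators and were chosen together, with earlier results of these data known, so these counts are no tests over independent genes.

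*H2-DMb1* and *H2-DMa* encode the beta and alpha chains of H2-DM, which loads peptides in late endosomes. *H2-DMb1* (ENSMUSG00000079547, chromosome 17 of GRCm38 from 34153072 to 34160230) had 55.1, 38.8, 46.3 and 37.5 CPM (counts scaled by TMM to a library of equal size) in KIKO mice 1 to 4, against 27.3, 27.3, 26.8 and 27.5 CPM in WT mice 1 to 4. Every KIKO mouse lay above every WT mouse, and the WT mice were almost level. The gene averaged 44.4 ± 8.13 CPM in KIKO and 27.2 ± 0.292 CPM in WT mice (SD, n = 4 each), so that its log2 fold change was 0.71 (SE 0.15, adjusted p = 0.0453 in edgeR). With 70 ways to assign 4 of 8 mice, the 2-sided exact permutation p was 0.0286, the smallest it can give. The WT spread was 1.07% of the mean, below the 10.9% that counting error alone gives at a mean of 84.5 counts, so that the WT mice were closer to each other than this depth can resolve. Its neighbour *H2-DMb2* is a near copy, and reads may have been divided between them. *H2-DMb2* averaged 9.41 ± 1.39 CPM in KIKO and 8.12 ± 3.76 CPM in WT mice, with overlapping groups (log2 fold change 0.22, SE 0.29, adjusted p = 0.744 in edgeR, and 0.59 without WT mouse 4).

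*H2-DMa* (ENSMUSG00000037649, chromosome 17 from 34119541 to 34139101) had 63.0, 44.4, 33.0 and 43.1 CPM in KIKO mice 1 to 4, against 25.04, 26.3, 39.8 and 24.1 CPM in WT mice 1 to 4. WT mouse 3 lay above KIKO mouse 3, and the other WT mice lay below all KIKO mice. The log2 fold change was 0.67 (SE 0.20, adjusted p = 0.127 in edgeR), with means of 45.9 ± 12.5 CPM in KIKO and 28.8 ± 7.39 CPM in WT mice (SD, n = 4 each; 2-sided exact permutation p = 0.0571). Without WT mouse 3 it was 0.87 (SE 0.19, adjusted p = 0.0216 in edgeR). Exons of *H2-DMa* overlap those of *Brd2* on the opposite strand, and whether reads were counted by strand is not given in the sources used here, so reads of both genes cannot be told apart there.

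*H2-Aa* encodes the alpha chain and *H2-Ab1* the beta chain of I-A, the class II molecule that C57BL/6 mice show on their cells. *H2-Aa* (ENSMUSG00000036594, chromosome 17 from 34282744 to 34287823) had 779, 536, 550.1 and 647 CPM in KIKO mice 1 to 4, against 385, 405, 517 and 410 CPM in WT mice 1 to 4. The groups did not overlap, though WT mouse 3 came close to KIKO mice 2 and 3. The means were 628 ± 112 CPM in KIKO and 429 ± 59.7 CPM in WT mice (SD, n = 4 each), and the log2 fold change of 0.55 (SE 0.15) did not pass (adjusted p = 0.0949 in edgeR). The 2-sided exact permutation p was 0.0286.

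*H2-Ab1* (ENSMUSG00000073421, chromosome 17 from 34257689 to 34269419) had 552, 435, 448 and 489 CPM in KIKO mice 1 to 4, against 412, 374, 381 and 363 CPM in WT mice 1 to 4. All KIKO mice lay above all WT mice. Its log2 fold change was 0.33 (SE 0.12, adjusted p = 0.187 in edgeR), with means of 481 ± 52.5 CPM in KIKO and 382 ± 21.1 CPM in WT mice (SD, n = 4 each; 2-sided exact permutation p = 0.0286).

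*H2-Eb1* encodes the beta chain of I-E, whose alpha chain gene is defective in C57BL/6 mice, so that the strain makes the beta transcript but no I-E on the surface. *H2-Eb1* (ENSMUSG00000060586, chromosome 17 from 34305867 to 34316674) had 487, 346, 398 and 446 CPM in KIKO mice 1 to 4, against 287, 288, 308 and 263 CPM in WT mice 1 to 4. The lowest KIKO mouse lay above the highest WT mouse. With means of 419 ± 60.7 CPM in KIKO and 287 ± 18.3 CPM in WT mice (SD, n = 4 each), the log2 fold change was 0.55 (SE 0.13), and the adjusted p of 0.0691 in edgeR missed the threshold. The 2-sided exact permutation p was 0.0286.

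*Cd74* encodes the invariant chain. *Cd74* (ENSMUSG00000024610, chromosome 18 from 60803848 to 60812652) had 581, 496, 466 and 514 CPM in KIKO mice 1 to 4, against 490, 452, 438 and 419 CPM in WT mice 1 to 4. KIKO mouse 3 lay below WT mouse 1, and the other KIKO mice lay above all WT mice. The means were 514 ± 48.4 CPM in KIKO and 450 ± 30.4 CPM in WT mice (SD, n = 4 each), for a log2 fold change of 0.19 (SE 0.12, adjusted p = 0.450 in edgeR; 2-sided exact permutation p = 0.0571). The 95% interval of the log2 fold change (taken from the SE) ran from -0.04 to 0.43.

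*Ciita* encodes the coactivator that class II promoters need. *Ciita* (ENSMUSG00000022504, chromosome 16 from 10480059 to 10528418) had 30.0, 15.2, 25.9 and 21.97 CPM in KIKO mice 1 to 4, against 15.2, 25.4, 19.4 and 17.7 CPM in WT mice 1 to 4. The groups overlapped through most of their range, with KIKO mouse 2 the lowest of all 8 mice and KIKO mouse 1 the highest. The log2 fold change was 0.26 (SE 0.21, adjusted p = 0.583 in edgeR), with means of 23.3 ± 6.32 CPM in KIKO and 19.5 ± 4.35 CPM in WT mice (SD, n = 4 each; 2-sided exact permutation p = 0.400). Its 95% interval, from -0.16 to 0.68, includes the log2 fold changes of *H2-Aa* and *H2-Eb1*, so a change of that size in *Ciita* could not be told from none with 4 mice a group. Leaving out 1 mouse at a time gave log2 fold changes of 0.12 (without KIKO mouse 1) to 0.42 (without WT mouse 2). Exons of *Ciita* overlap those of *Dexi* on the opposite strand, with the same limit on counting as for *H2-DMa*.

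**Figure D1:**
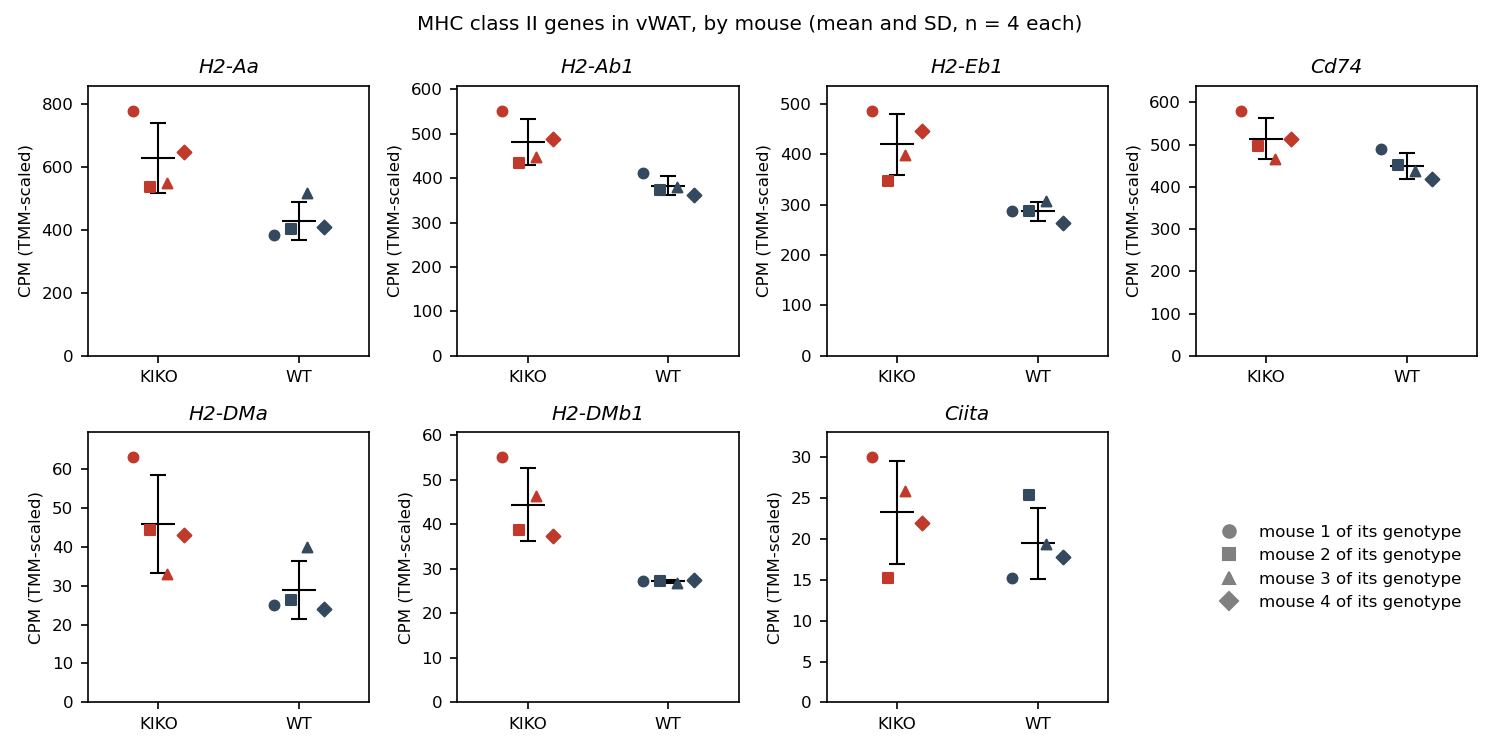
Level of each of the 7 members (TMM-scaled CPM, axis from 0) in KIKO mice (red) and WT mice (grey), 1 point per mouse, with the mean and SD of each genotype (n = 4). *H2-Aa*, *H2-Ab1*, *H2-Eb1* and *H2-DMb1* do not overlap between genotypes, and KIKO mouse 1 (circle) is the highest mouse for all 7 members.

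KIKO mouse 1 had the highest level of all 8 mice for all 7 members, and WT mouse 4 the lowest for 4 of them. KIKO mouse 1 also had the highest score of all mice on the first principal component (24.0). The share of all genes that were highest in this mouse is not given. The lowest KIKO mouse was mouse 2 for 4 members, mouse 3 for 2 and mouse 4 for 1. Averaged over the members as standardized log2 CPM, KIKO mice 1 to 4 stood at 1.67, 0.07, 0.38 and 0.68, against -0.73, -0.60, -0.43 and -1.02 in WT mice 1 to 4. Without KIKO mouse 1, all 7 log2 fold changes were still above 0 and no member passed in edgeR. Over the runs that left out 1 mouse at a time, the log2 fold change of *H2-DMb1* ran from 0.59 to 0.79 (adjusted p 0.0231 to 0.154), that of *H2-Eb1* from 0.47 to 0.63 and that of *H2-Aa* from 0.43 to 0.65. Without WT mouse 3, 4 members passed in edgeR, namely *H2-Aa*, *H2-DMa*, *H2-Eb1* and *H2-DMb1*, with adjusted p values of 0.0191 to 0.0231, where 2.53% of the genes tested passed as higher, and leaving out any other mouse left no member past the threshold.

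The number of members that passed also depended on the tool. DESeq2, the tool named in the study's methods, called *H2-Aa* (adjusted p = 0.0136), *H2-Eb1* (adjusted p = 0.00216) and *H2-DMb1* (adjusted p = 0.00651), where 2.42% of its 6166 genes with an adjusted p passed as higher. In edgeR with no filter on low counts, *H2-Aa*, *H2-DMa*, *H2-Eb1* and *H2-DMb1* passed, beside 0.807% of 18092 genes passing as higher. No member passed with library totals as the only scaling, where the median of all tested genes moved to -0.08, or in limma. None passed after adjusting each library for length and GC content of transcripts, under which *H2-DMb1* had a log2 fold change of 0.60 (adjusted p = 0.0983 in edgeR). With that adjustment *H2-Ab1* fell to 0.22 and *Cd74* to 0.09, whereas *H2-Aa* stayed at 0.55 and *Ciita* rose to 0.36. There 4 members had an unadjusted p under 0.05 in edgeR, where 1600 of 11080 genes had one in either direction. In the fit as reported 5 members had one, beside 1794 of 11080 genes. *H2-Ab1*, *Cd74* and *Ciita* passed in none of the 18 alternatives, and the log2 fold change of every member stayed above 0 in all of them.

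Between members, levels can be set side by side only per length of transcript. Divided by the length of the annotated exons in kilobases, mean levels in KIKO mice were 306 CPM per kb for *Cd74*, 216 for *H2-Eb1*, 187 for *H2-Ab1* and 165 for *H2-Aa*, against 268, 147, 149 and 113 CPM per kb in WT mice. *H2-DMb1* and *H2-DMa* followed at 26.4 and 13.3 CPM per kb in KIKO mice, against 16.2 and 8.36 CPM per kb in WT mice. *Ciita* was lowest, at 2.44 CPM per kb in KIKO and 2.04 CPM per kb in WT mice. *H2-Eb1*, *H2-Ab1* and *H2-Aa* were neighbours whose ranges over KIKO mice overlapped. Over WT mice *H2-Eb1* and *H2-Ab1* overlapped in most of their range and *H2-Aa* reached *H2-Eb1* in WT mouse 3. By this length *Cd74* stood above and *Ciita* below all others in each genotype. Annotated exons were joined over all transcripts of a gene, to 2568 bases for *H2-Ab1* and 1679 bases for *Cd74*. Their longest transcripts have 1212 and 1410 bases, so the place of *Cd74* above *H2-Ab1* depends on the length used. A digital mRNA-seq service is named in the labels and a stranded whole-transcript kit in the paper, and if reads came from transcript ends the division by length would not fit.

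Relative to *Cd74* in the same library, which needs no scaling between libraries, the class II chains were not all in the same proportion in both genotypes. The ratio of *H2-Ab1* to *Cd74* counts was 0.951, 0.877, 0.961 and 0.951 in KIKO mice 1 to 4, against 0.840, 0.828, 0.869 and 0.867 in WT mice 1 to 4. The ratio of *H2-DMb1* to *Cd74* was 0.0730 to 0.0993 in KIKO and 0.0556 to 0.0656 in WT mice. Neither of these ratios overlapped between genotypes. For *H2-Ab1* the gap, from 0.869 in WT mouse 3 to 0.877 in KIKO mouse 2, was smaller than counting error. That error was 2.62% for *H2-Ab1* and 2.54% for *Cd74* at their mean counts in KIKO mice. For *H2-DMb1* the gap was on the scale of its counting error, 8.65% in KIKO and 10.9% in WT mice. The share of all genes whose ratio to *Cd74* separates the genotypes is not given. The ratio of *H2-Aa* to *Cd74* was 1.08 to 1.34 in KIKO and 0.786 to 1.18 in WT mice, and that of *H2-Eb1* to *Cd74* was 0.698 to 0.869 in KIKO and 0.586 to 0.703 in WT mice. In both of these the highest WT mouse, mouse 3, overlapped the KIKO mice. These ratios were chosen after the levels had been seen and are given with no test.

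**Figure D2:**
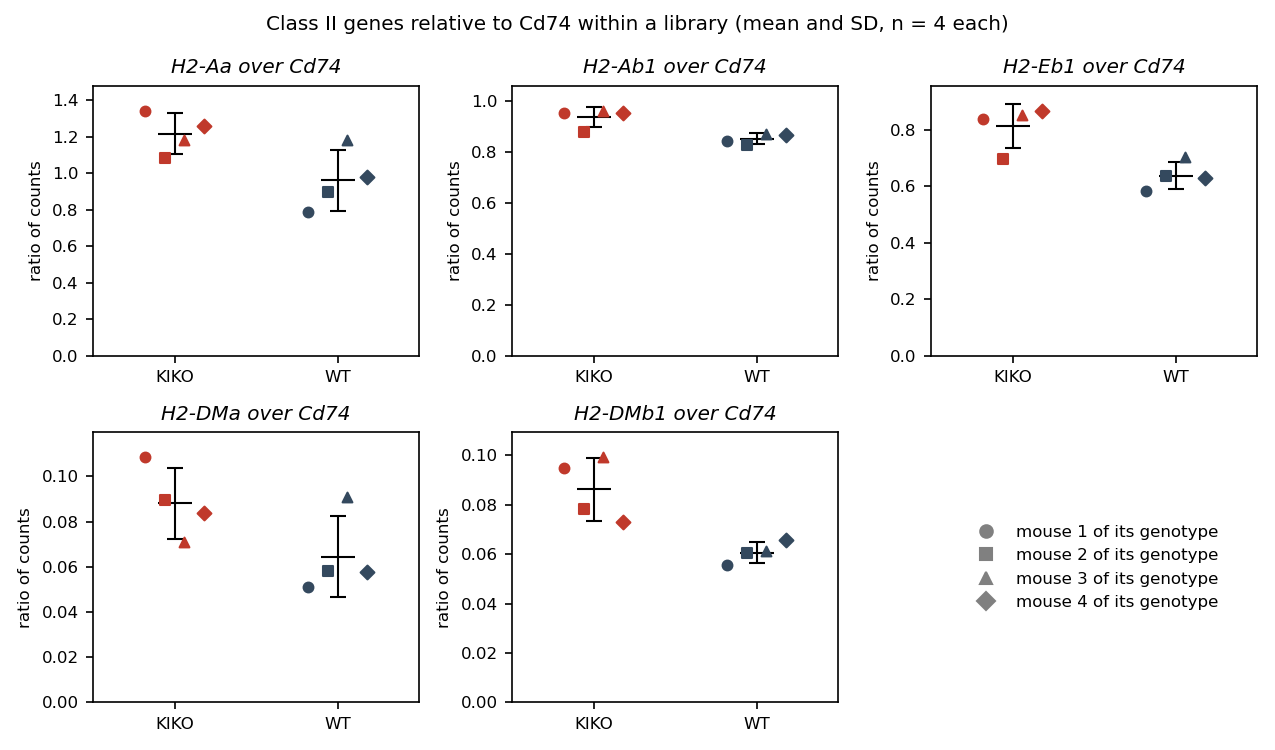
Counts of *H2-Aa*, *H2-Ab1*, *H2-Eb1*, *H2-DMa* and *H2-DMb1* divided by the count of *Cd74* in the same library (ratio, axis from 0) in KIKO mice (red) and WT mice (grey), with mean and SD (n = 4 each). The *H2-Ab1* and *H2-DMb1* ratios do not overlap between genotypes, by gaps under or on the scale of counting error. The others overlap through WT mouse 3 (triangle).

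The remaining genes of the pathway did not move as a group. Of the other class II chains, *H2-DMb2* alone passed the filter. *H2-Ob* averaged 2.80 ± 2.32 CPM in KIKO and 2.97 ± 1.27 CPM in WT mice, *H2-Oa*, its partner in the H2-O inhibitor of H2-DM, averaged 0.638 ± 0.695 CPM in KIKO and 0.807 ± 0.611 CPM in WT mice, and *H2-Eb2* had 1 count over all 8 libraries. Of the 10 tested genes for invariant chain cleavage and antigen processing, none passed in edgeR or limma and 1, *Ctss*, of the 9 with an adjusted p in DESeq2 (6 with a log2 fold change above 0, median 0.07), and 2 were higher at an unadjusted p under 0.05. Those were *Ctss*, the protease that cuts the invariant chain in macrophages and dendritic cells, and *Ctsh*, an aminopeptidase of lysosomes, both named after their values were seen.

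*Ctss* had 139.0, 139.1, 119.9 and 122 CPM in KIKO mice 1 to 4, against 92.9, 98.4, 100.4 and 101 CPM in WT mice 1 to 4, with a log2 fold change of 0.40 (SE 0.11, adjusted p = 0.100 in edgeR). *Ctsh* had 138, 164, 118 and 119.8 CPM in KIKO mice, against 95.7, 102, 114 and 101 CPM in WT mice, with a log2 fold change of 0.38 (SE 0.13, adjusted p = 0.167 in edgeR). Neither gene overlapped between genotypes. The processing genes with the highest levels were the protease genes *Ctsd* and *Ctsb* and the protease inhibitor *Cst3*, whose log2 fold changes were 0.11 (SE 0.17), 0.14 (SE 0.13) and 0.02 (SE 0.15).

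Of the 15 tested genes for the transcription of class II genes and for interferon-gamma signalling, which induces *Ciita*, none passed in edgeR or limma and 1, *Spi1*, of the 8 with an adjusted p in DESeq2 (7 above 0, median -0.02), with 1 higher and 1 lower at an unadjusted p under 0.05. The genes with the highest levels included *Jak1* (log2 fold change -0.08, SE 0.12) and *Ifngr1* (-0.41, SE 0.22), a kinase and a chain of the interferon-gamma receptor (for *Ifngr1*, -0.118 without WT mouse 1), and *Ifng* had 2 counts over all libraries. The genes at the ends of this list are named after their values were seen. *Spi1*, which encodes PU.1, a transcription factor of myeloid cells and B cells, had 41.9, 38.4, 44.1 and 55.4 CPM in KIKO mice 1 to 4, against 24.4, 25.1, 38.2 and 23.4 CPM in WT mice 1 to 4. Its groups did not overlap, with WT mouse 3 again close to the KIKO mice (log2 fold change 0.70, SE 0.18, adjusted p = 0.0803 in edgeR). *Nfya*, a subunit of the Y box factor NF-Y, had 4.95, 1.60, 4.21 and 4.39 CPM in KIKO mice, against 6.66, 6.36, 7.70 and 7.37 CPM in WT mice (log2 fold change -0.85, SE 0.31, adjusted p = 0.187 in edgeR). All 4 KIKO mice were under the lowest WT mouse, on 134 counts over all 8 libraries.

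Of the 6 tested genes for turnover of class II molecules and for costimulation, none passed in edgeR or limma, none of the 2 with an adjusted p passed in DESeq2, and 0 had an unadjusted p under 0.05 (4 above 0, median 0.25). *Marchf8*, a ubiquitin ligase that can act on class II molecules, averaged 47.2 ± 6.55 CPM in KIKO and 49.1 ± 4.79 CPM in WT mice, and its relative *Marchf1* averaged 14.3 ± 7.08 CPM in KIKO and 17.1 ± 2.68 CPM in WT mice. *Cd274*, which encodes the inhibitory ligand PD-L1, averaged 29.9 ± 11.2 CPM in KIKO and 23.4 ± 7.33 CPM in WT mice. All of these genes overlapped between genotypes.

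**Figure D3:**
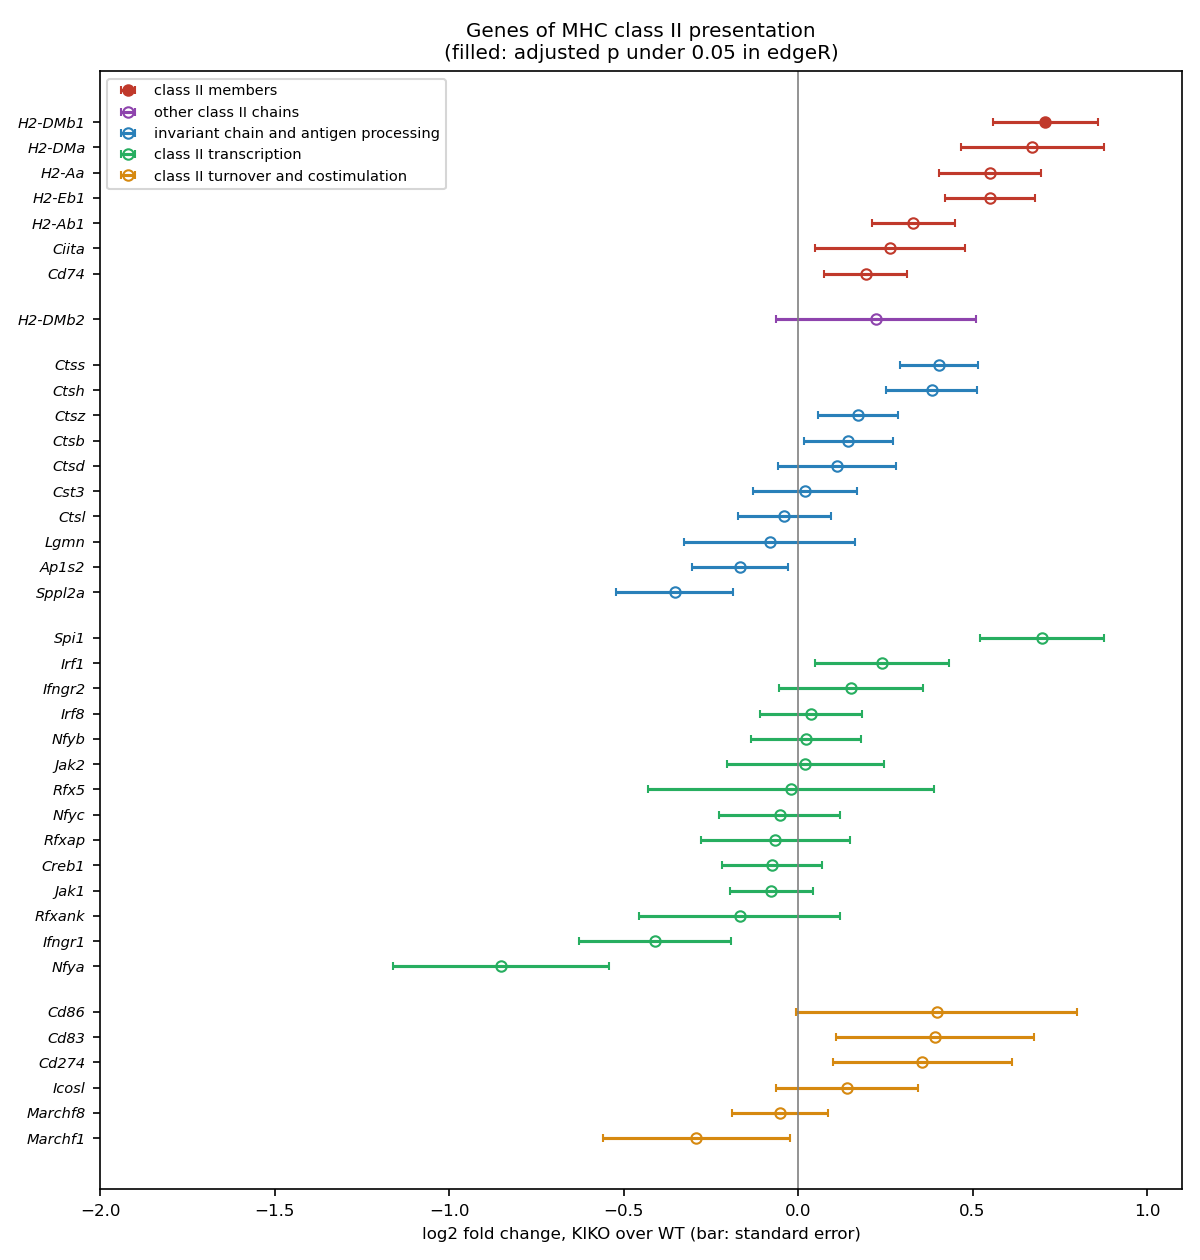
Log2 fold change of KIKO over WT mice with its standard error for the 7 members (red) and for other tested genes of class II presentation by role, where a filled point has an adjusted p under 0.05 in edgeR. The members lie above 0, from 0.19 for *Cd74* to 0.71 for *H2-DMb1*, the single filled point, whereas the genes for processing and transcription lie on both sides of 0.

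Markers of the cells that can carry class II were summed in each library beside the members. Summed over the 7 members, the level was 1911 to 2546 CPM in KIKO and 1524 to 1730 CPM in WT mice. The sum of 16 macrophage markers was 2320 to 2989 CPM in KIKO and 2042 to 2276 CPM in WT mice, and that of 8 pan-leukocyte markers was 325 to 383 CPM in KIKO and 258 to 320 CPM in WT mice. Neither sum overlapped between genotypes, though without *Lyz2*, the macrophage marker of highest level, the macrophage sums did. *Lyz2* averaged 660 ± 56.5 CPM in KIKO and 341 ± 101 CPM in WT mice. Of the pan-leukocyte markers 7 were tested and none passed in edgeR or limma, nor did the 5 with an adjusted p in DESeq2, with 4 higher at an unadjusted p under 0.05 (7 above 0, median 0.29). Their part in the class II levels was not tested.

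Of the 16 macrophage markers, 2 rose and 14 did not pass in edgeR (14 above 0, median 0.34), with 6 higher and 1 lower at an unadjusted p under 0.05. The same 2 genes passed in limma, and DESeq2 called 3 of the 11 with an adjusted p, these 2 and *Cd68*. *Lyz2*, which encodes lysozyme, had 671, 705, 578 and 687 CPM in KIKO mice 1 to 4, against 226, 305, 464 and 371 CPM in WT mice 1 to 4 (log2 fold change 0.95, SE 0.18, adjusted p = 0.0326 in edgeR). *Folr2*, a folate receptor gene of resident macrophages, had 65.0, 100.3, 92.7 and 82.0 CPM in KIKO mice, against 37.4, 42.4, 52.2 and 48.6 CPM in WT mice (log2 fold change 0.91, SE 0.16, adjusted p = 0.0326 in edgeR). Every KIKO mouse lay above every WT mouse for both genes. Both calls were lost without KIKO mouse 2, 3 or 4 or WT mouse 2 or 4, that of *Lyz2* also without KIKO mouse 1, with log2 fold changes of 0.80 to 1.14 for *Lyz2* and 0.79 to 1.02 for *Folr2* over all alternatives. Of the defining markers, *Cd68* had a log2 fold change of 0.57 (SE 0.15, adjusted p = 0.0836), *Adgre1* of 0.60 (SE 0.22, adjusted p = 0.204) and *Csf1r* of 0.36 (SE 0.12, adjusted p = 0.170) in edgeR. *C1qa*, a complement gene of macrophages, stood at 402 ± 41.6 CPM in KIKO and 417 ± 45.6 CPM in WT mice, and *Mertk*, a receptor gene for engulfing dead cells named after its values were seen, had a log2 fold change of -0.97 (SE 0.26, adjusted p = 0.0959 in edgeR).

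The order of mice by macrophage sum and by member sum differed in KIKO mice and was the same in WT mice. In KIKO mice 1 to 4 the macrophage sums were 2503, 2989, 2320 and 2581 CPM, beside member sums of 2546, 1911, 1968 and 2198 CPM. In WT mice 1 to 4 they were 2229, 2079, 2276 and 2042 CPM, beside member sums of 1643, 1598, 1730 and 1524 CPM. *Mertk*, a marker in the macrophage sum, had 219 CPM in KIKO mouse 2, against 90.1 to 115 CPM in the other KIKO mice. What these orders reflect was not tested.

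Of the 12 dendritic cell markers, 7 were tested and none passed in edgeR or limma, nor did the 4 with an adjusted p in DESeq2, with 1 higher at an unadjusted p under 0.05 (4 above 0, median 0.29), and their sum was 249 to 267 CPM in KIKO and 222 to 254 CPM in WT mice. *Flt3*, a receptor of dendritic cell precursors, was near 0 in both groups (8 counts in all), *Zbtb46*, a factor of conventional dendritic cells that endothelial cells also express, averaged 33.6 ± 4.60 CPM in KIKO and 40.2 ± 8.18 CPM in WT mice, and *Itgax* averaged 5.69 ± 0.8287 CPM in KIKO and 4.53 ± 1.30 CPM in WT mice. *Clec10a*, a lectin gene of dendritic cells and macrophages, had a log2 fold change of 0.38 (SE 0.13, adjusted p = 0.162 in edgeR). *Fscn1*, also among the dendritic cell markers of highest level, overlapped between genotypes (log2 fold change -0.24, SE 0.18).

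Of the 12 B cell markers, 6 were tested and none passed in edgeR or limma, nor did the 2 with an adjusted p in DESeq2, with 0 at an unadjusted p under 0.05 (4 above 0, median 0.08). The B cell sum, mostly immunoglobulin *Ighm* and *Igkc*, was 381 to 1238 CPM in KIKO and 562 to 1117 CPM in WT mice, and KIKO mouse 1, the mouse with the highest class II level, had the lowest sum. The defining marker *Cd79a* had 2 counts over all libraries, and *Ms4a1* averaged 5.87 ± 6.13 CPM in KIKO and 4.74 ± 1.43 CPM in WT mice.

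Of the 12 T cell markers, 4 were tested and none passed in edgeR or limma, with 1 higher at an unadjusted p under 0.05 (4 above 0, median 0.38). DESeq2 gave none of them an adjusted p. The T cell sums were 36.6 to 43.1 CPM in KIKO and 25.4 to 32.7 CPM in WT mice. The defining markers *Cd3e*, *Cd3d* and *Cd3g* were under the filter, at 2.57 ± 0.645, 3.14 ± 0.685 and 0.600 ± 0.539 CPM in KIKO mice, against 2.81 ± 0.779, 2.51 ± 0.914 and 0.744 ± 0.692 CPM in WT mice. *Trbc2*, a T cell receptor constant gene, averaged 11.6 ± 2.92 CPM in KIKO and 5.53 ± 0.642 CPM in WT mice (log2 fold change 1.06, SE 0.25, adjusted p = 0.0704 in edgeR), without overlap. *Cd247* (log2 fold change 0.36, SE 0.40) and *Trac* (0.27, SE 0.27), the tested T cell markers next in level, overlapped between genotypes. *Ptprc*, a pan-leukocyte marker which encodes CD45, averaged 68.7 ± 7.04 CPM in KIKO and 49.9 ± 7.69 CPM in WT mice, without overlap (log2 fold change 0.46, SE 0.14, adjusted p = 0.131 in edgeR). Of the other pan-leukocyte markers of highest level, *Laptm5* did not overlap (0.26, SE 0.12) and *Cd52* did (0.29, SE 0.18).

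**Figure D4:**
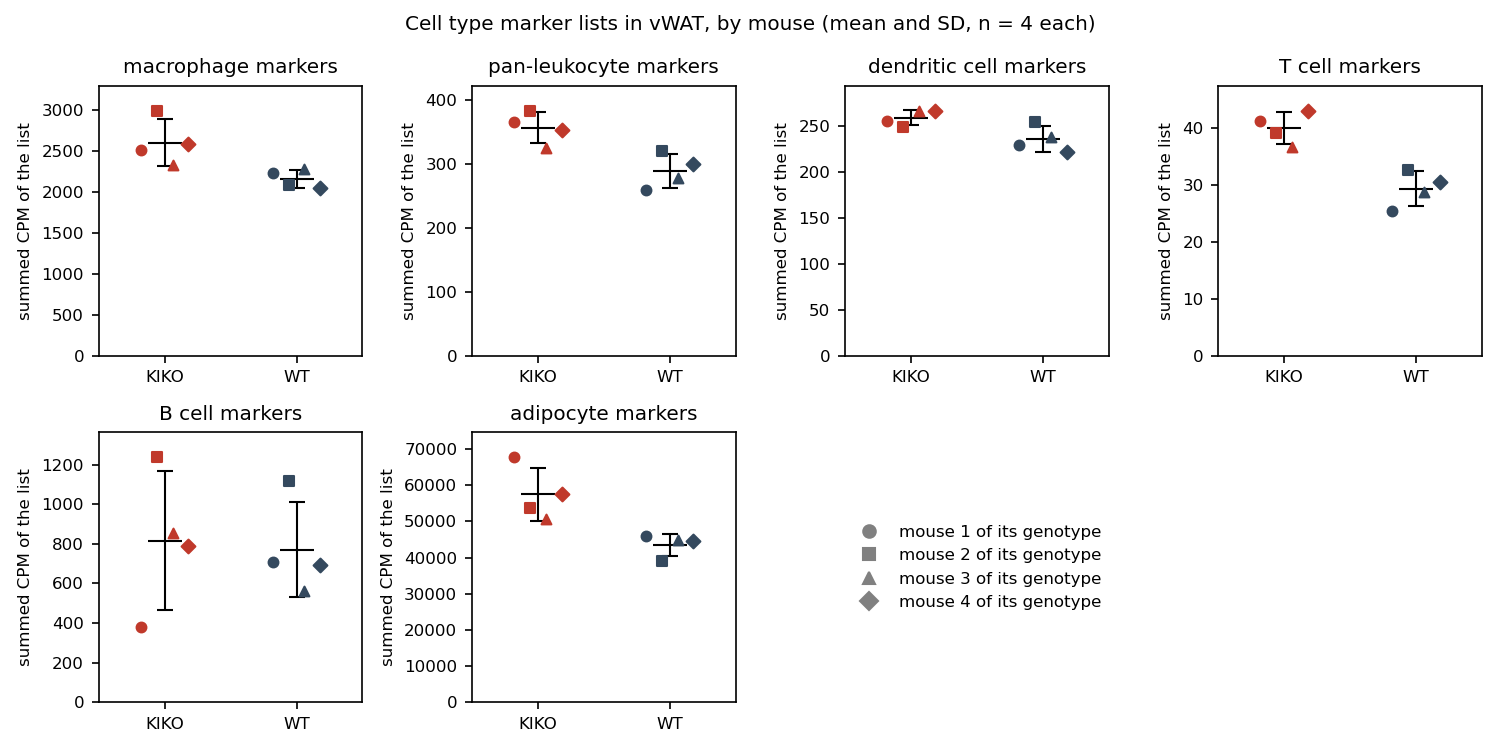
Summed CPM (axis from 0) of 6 marker lists in KIKO mice (red) and WT mice (grey), 1 point per mouse, with mean and SD (n = 4 each). The macrophage, pan-leukocyte, T cell and adipocyte sums do not overlap between genotypes, whereas the dendritic cell and B cell sums do. Without *Lyz2* the macrophage sums overlap, and without *Cfd* the adipocyte sums overlap.

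The tissue held the adipocyte markers in both genotypes. Of the 12, none passed in edgeR or limma and 2, *Adipoq* and *Cfd*, in DESeq2, with 2 higher at an unadjusted p under 0.05 (8 above 0, median 0.08), and *Adipoq*, which encodes adiponectin, had 6341 ± 497 CPM in KIKO and 4366 ± 714 CPM in WT mice. Their sum was 50748 to 67766 CPM in KIKO and 39129 to 45883 CPM in WT mice, and more than any other gene *Cfd*, which encodes adipsin, made it up, at 29498 ± 9186 CPM in KIKO and 17978 ± 2405 CPM in WT mice. Without *Cfd* the sums of the 2 genotypes overlapped. The other defining markers, *Plin1* (log2 fold change 0.23, SE 0.17) and *Cidec* (-0.24, SE 0.16), overlapped between genotypes. *Fabp4*, also among the adipocyte markers of highest level, overlapped too (0.06, SE 0.17). Of 10 epididymis markers, 9 had no count in any library, and *Adam7* had 4 counts, all in WT mouse 2.

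The genes whose levels over the 8 mice were most like the mean standardized level of the members were *Ube2e1* (Pearson's r = 0.989), a ubiquitin-conjugating enzyme gene, *Lgals3bp* (r = 0.981), a galectin ligand gene, and *Casp1* (r = 0.965), the inflammatory caspase gene. *Rpl7*, *Rras*, *Endod1*, *Gstt3*, *Akap7*, *Bcl6* and *Rpl23a* followed, with r of 0.949 to 0.961. These values are a description over 8 libraries, which share genotype and the high level of KIKO mouse 1, and no p is given. *Lgals3bp* averaged 281 ± 43.1 CPM in KIKO and 202 ± 14.7 CPM in WT mice (log2 fold change 0.48, SE 0.13, adjusted p = 0.0959 in edgeR). Of these 10 genes *Bcl6*, a transcriptional repressor gene, passed in edgeR, at 44.5 ± 15.6 CPM in KIKO and 21.5 ± 4.61 CPM in WT mice (log2 fold change 1.05, SE 0.22, adjusted p = 0.0453), a call lost without any mouse other than WT mouse 3.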

How the data were processed

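Bulk RNA of vWAT from 4 KIKO and 4 WT male mice had been sequenced by the authors. The paper's methods and the labels name Trimmomatic for trimming, HISAT2 for alignment to GRCm38 and DESeq2, and StringTie is named for quantification in the paper alone. The deposited table of raw counts per Ensembl gene was used, and the authors' log2 values (a count over the size factor of its library, plus 1) served as an alternative. Symbols and positions came from GENCODE annotation of GRCm38 (31011 of 31053 genes matched), and promoter windows from RefSeq. The kit and the instrument differ between paper and labels.

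Genotype was tested on the counts with the quasi-likelihood test of edgeR 4.0.16 (R 4.3.3) after filterByExpr and TMM normalization, in a model with no other term. Adjustment by Benjamini-Hochberg was over 11080 genes. Exact permutation tests were 2-sided, on log2 CPM with a prior count of 2. The steps were tested on simulated data. The total of 2602189 to 3478539 counts per library gave a counting error of 10.9% for *H2-DMb1* and 2.74% for *H2-Aa* in WT mice. Alternatives were RLE, upper quartile and library total scaling, other filters, DESeq2 1.42.0, limma 3.58.1 (voom, and trend on the authors' values), the replicate number as a block, a length and GC correction with mgcv 1.9.3, and leaving out each mouse.

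The members and the 12 lists were chosen with earlier results of these data known. Genes named are all members, the 3 genes of highest level, those that passed and the defining markers of each list. The 10 genes most like the members are named too. The defining epididymis markers *Crisp1* and *Lcn5* had no count and are not named in the results. *H2-Eb2*, *Ifng* and *Irf8* are named outside this rule. *Ctss*, *Ctsh*, *Spi1*, *Nfya*, *Irf1* and *Mertk* were added after their values were seen. *Ifi30* and the *H2-Ea* pseudogene were not analysed here, and the targeted gene and 2 genes of the lists are not reported here. No pair of libraries of a genotype agreed within counting error.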

Additional observations from a re-analysis of the deposited data

Results flagged for a closer look

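For 136 groups of 4 mice the gap between the highest or lowest mouse and the next was compared with Dixon's critical value, which chance passes in about 1 in 20 groups. Among the members, *H2-DMa* stood out in WT mouse 3, at 39.8 CPM against 24.1 to 26.3 CPM in the other WT mice. *H2-DMb2* stood at 13.7 CPM in WT mouse 4, against 5.71 to 6.69 CPM in the other WT mice. In KIKO mouse 2, *Ctsd* stood at 1794 CPM, against 1432 to 1469 CPM in the other KIKO mice, and *Marchf1* at 24.8 CPM, against 9.37 to 11.6 CPM. *Ptprc* was low in WT mouse 3, at 38.5 CPM against 52.3 to 54.9 CPM in the other WT mice, and *Cfd* was high in WT mouse 1, at 21582 CPM against 16643 to 16858 CPM. *Spi1* stood at 38.2 CPM in WT mouse 3, against 23.4 to 25.1 CPM in the other WT mice, and *Mertk* at 378 CPM in WT mouse 1, against 203 to 220 CPM. The summed epididymis markers stood at 1.21 CPM in WT mouse 2, from 4 counts of *Adam7*, and at 0 in all other mice.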

How the results depend on the processing

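Of the 7 members, 1 passed in the fit as reported, with RLE factors, with upper quartile scaling and with a minimum of 10 counts in 4 libraries, 4 with no filter on low counts, 3 in DESeq2, and 0 with library totals, in limma-voom, in limma-trend, with the replicate block and with the length and GC correction. Leaving out 1 mouse gave 0 to 4 members. The number of genes that passed was 75 as reported, 382 with no filter (of 18092 genes), 281 in DESeq2, 40 in limma-voom, 45 in limma-trend, 31 with the length and GC correction, and 0 to 654 without 1 mouse, the highest without WT mouse 3, next 48 without WT mouse 1, and 0 without KIKO mouse 4 (1328 genes at an unadjusted p under 0.05), WT mouse 2 (1344) or WT mouse 4 (1533). With the replicate number as a block, 0 genes passed in edgeR (1427 at an unadjusted p under 0.05). Mice with the same number did not deviate together (r of -0.152, -0.133, -0.113 and 0.0285 for numbers 1 to 4). No pairing by number was seen, though these 4 values cannot exclude one. The shares of higher and lower calls were 31 and 44 as reported, 18 and 49 with library totals and 149 and 132 in DESeq2.

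No member changed direction. Among other genes near 0, the log2 fold change was -0.0538 for *Cst3*, -0.000838 for *Ighm* and -0.0112 for *Fabp4* with library totals, -0.124 for *Cst3*, -0.0270 for *Ighm* and -0.169 for *Igkc* with the length and GC correction, while *Ms4a1* was at -0.423 (voom) and -0.289 (trend). Leaving out 1 mouse took *Cst3* from -0.0814 to 0.107, *Marchf8* from -0.144 to 0.00564, *Ighm* from -0.0900 to 0.256, *Igkc* from -0.398 to 0.625, *Ms4a1* from -0.602 to 0.638, *C1qa* from -0.128 to 0.00200 and *Fabp4* from -0.0468 to 0.172. The cause was not tested. Counting error was 11.9% of the mean in KIKO and 12.8% in WT mice for *Ciita*, whose levels varied between mice by 27.1% in KIKO and 22.3% in WT mice.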

Other observations

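*Ciita*, itself a member, and 2 chosen genes that are known to answer to interferon-gamma were lowest, of the KIKO mice, in mouse 2. *Irf8*, from the same transcription list as *Irf1*, was lowest in KIKO mouse 3, at 27.9 CPM against 32.4 CPM in KIKO mouse 2. An answer to interferon-gamma was not tested. *Irf1*, an interferon-induced transcription factor gene chosen here after its values were seen, had 86.1, 40.8, 55.7 and 75.9 CPM in KIKO mice 1 to 4, against 54.2, 64.2, 52.2 and 48.9 CPM in WT mice 1 to 4. *Cd274* had 44.2, 17.6, 31.7 and 26.1 CPM in KIKO mice 1 to 4, against 15.9, 32.4, 26.1 and 19.4 CPM in WT mice 1 to 4. KIKO mouse 1 was the highest of all mice for *Irf1* and *Cd274*, as it was for the 7 members, *Ciita* among them. *Ciita*, *Irf1* and *Cd274* overlapped between genotypes.

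Between pairs of members, the Pearson correlation of levels over the 8 libraries after centring each genotype on its mean was 0.913 for *H2-Ab1* with *Cd74* and 0.883 for *H2-Aa* with *H2-DMa*, and 0.222 for *H2-DMa* with *Ciita*. These values describe 8 libraries that share depth and scaling, with no test.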
